A study of Homo sapiens with 6 samples.

Results

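The receptor of interleukin 21 (IL21R) and 9 further genes of cytokine receptor and JAK-STAT signalling were followed in Toledo cells after inhibition of the arginine methyltransferase CARM1. The genes were taken by symbol: the receptor chains IL21R, IL2RG, IL4R and IL10RA, the kinases JAK1 and JAK3, the transcription factors STAT3, STAT5B and STAT6, and the feedback inhibitor SOCS1. All 10 of 10 had a row among the 18278 genes of the table, and all 10 passed the filter on low values. They were chosen by their values in this same contrast, the normalized read counts of the TP-064 and DMSO samples. Those values are therefore given as a description, with no test.

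Toledo is a permanent human cell line of diffuse large B cell lymphoma, a tumour of mature B cells. The 3 samples treated with the CARM1 inhibitor TP-064 (5 uM) and the 3 samples treated with DMSO were each kept in suspension culture for 6 days. All 6 are the same unmodified line, so the comparison speaks for 1 line only, and each is a bulk culture in which fewer cells of a kind and less RNA per cell cannot be told apart. Whether the replicates come from separate cultures is not stated in the labels, and the spread behind each p-value may thus be technical.

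Cytokines of this family bind receptor chains that have no enzyme activity of their own. The chains carry Janus kinases (JAKs), which phosphorylate the receptor and then STAT proteins, and these enter the nucleus as dimers and bind DNA. SOCS proteins, whose genes are themselves STAT targets, bind the kinases and receptors and shut the signal down. In B cells of the germinal centre, interleukin 21 from T follicular helper cells acts through IL21R paired with the common gamma chain IL2RG, with JAK1, JAK3 and mainly STAT3. Interleukin 4 acts through IL4R with the same gamma chain and mainly STAT6.

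Recovered reads over the listed genes came to 41354131 to 48360867 per library. All 7 of 7 B cell markers were in the table, with a summed level of 94707 to 101958 in TP-064 samples and 99131 to 101069 in DMSO samples. That sum hides moves in both directions, since all 7 passed the limma test, 2 higher and 5 lower. CD22, a B cell surface lectin, averaged 299 ± 30.5 with TP-064 and 1746 ± 104 with DMSO, while MS4A1, which encodes CD20, averaged 19166 ± 1170 with TP-064 and 10282 ± 564 with DMSO (SD, n = 3 each). Of 10 T and NK cell markers 2 were in the table, with a summed level of 39.6 to 41.1 after TP-064 and 31.8 to 33.2 after DMSO. Of these, CD4 was higher, at 22.3 ± 2.33 with TP-064 and 5.19 ± 1.82 with DMSO, and KLRD1 did not pass, at 17.8 ± 2.33 with TP-064 and 27.3 ± 2.43 with DMSO (SD, n = 3 each). Of 8 myeloid markers 3 were, at 71.2 to 99.5 after TP-064 and 34.6 to 65.6 after DMSO. CSF1R was higher, at 64.3 ± 13.3 with TP-064 and 12.6 ± 6.20 with DMSO, CD14 was lower, at 6.26 ± 2.40 with TP-064 and 16.8 ± 5.29 with DMSO (SD, n = 3 each), and LYZ did not pass. Of 8 fibroblast and epithelial markers 2 were, at 144 to 155 after TP-064 and 286 to 315 after DMSO. COL1A1 was lower, at 136 ± 1.44 with TP-064 and 287 ± 16.3 with DMSO (SD, n = 3 each). KRT8 did not pass, at 14.5 ± 5.50 with TP-064 and 9.14 ± 6.87 with DMSO (SD, n = 3 each). The part of these markers in the results was not tested. TP-064 replicate 3 stood apart in reads of antisense genes. Over 340 antisense genes covered for at least 50% of their exon length by listed exons of the other strand, its sum was 32987 normalized read counts, against 11713 to 16432 in the other 5 libraries. Without it the log2 fold change of IL21R was -3.22 and that of IL4R was -1.01, and each of the 10 genes kept its sign. For the 7 with no overlap between the groups, leaving out 1 sample cannot change the sign.

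The promoter sequences below are shown because 2 of the genes that were lower lie side by side on chromosome 16, because SOCS1 is a feedback target of the pathway, and because the window of CISH, another feedback inhibitor described further on, shows what repeated STAT letters look like. Each is the 250 bases before a RefSeq start site on GRCh38.p14, 5′ to 3′ on the strand of the gene. Capitals mark matches to TTCNNNGAA, the core letters of most STAT sites, or TTCNNNNGAA, the form with wider spacing preferred by STAT6. Both motifs read the same on both strands, so 1 search covers both, and the 4 matches printed do not overlap.
IL21R, chr16:27427021-27427270, plus strand: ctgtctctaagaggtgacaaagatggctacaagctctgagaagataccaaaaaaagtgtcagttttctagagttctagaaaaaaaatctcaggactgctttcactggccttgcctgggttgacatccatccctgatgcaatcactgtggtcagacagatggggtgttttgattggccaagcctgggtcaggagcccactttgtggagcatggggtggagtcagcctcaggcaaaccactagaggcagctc
IL4R, chr16:27313724-27313973, plus strand: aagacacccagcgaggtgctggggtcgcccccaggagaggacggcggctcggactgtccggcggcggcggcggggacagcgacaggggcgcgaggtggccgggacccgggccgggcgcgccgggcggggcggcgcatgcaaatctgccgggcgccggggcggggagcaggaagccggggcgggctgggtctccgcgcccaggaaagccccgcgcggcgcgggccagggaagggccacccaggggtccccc
SOCS1, chr16:11256205-11256454, minus strand: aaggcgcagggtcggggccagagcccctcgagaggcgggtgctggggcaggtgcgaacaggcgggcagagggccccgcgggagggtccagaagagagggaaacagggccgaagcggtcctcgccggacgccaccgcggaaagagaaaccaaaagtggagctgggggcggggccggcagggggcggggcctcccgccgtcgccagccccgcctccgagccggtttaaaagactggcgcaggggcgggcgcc
CISH, chr3:50611775-50612024, minus strand: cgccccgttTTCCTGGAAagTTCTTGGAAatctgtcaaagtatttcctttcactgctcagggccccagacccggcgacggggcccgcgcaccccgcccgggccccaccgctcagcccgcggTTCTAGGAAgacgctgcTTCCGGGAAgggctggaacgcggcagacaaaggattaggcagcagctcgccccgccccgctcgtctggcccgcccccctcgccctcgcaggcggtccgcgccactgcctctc
All 10 genes matched the RefSeq table, with 12 windows in all, and 0 of the 12 held either motif. Over all 35116 RefSeq windows of this length, 6.57% held TTCNNNGAA, 5.38% held TTCNNNNGAA and 11.5% held either. CISH held 4 copies of TTCNNNGAA, which only 5 of the 35116 windows (0.014%) reach. It was picked from 126 windows of the further pathway genes described below, 20 of which held either motif, and none of which held more copies. The IL21R window lies before a start 25.1 kb downstream of the first annotated start of that gene, so it covers 1 of its start sites. Of the tested genes with a match, CISH and STAT5A were called higher after TP-064 and BCL6, CD274, FCER2, IL15RA and IL20RB lower. IFNLR1 and PRDM1 did not pass, and a link between matches and direction was not tested. Such matches describe letters and not binding.

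The receptor chains differed most among themselves. IL21R had 165, 164 and 139 normalized read counts in TP-064 replicates 1, 2 and 3, against 1389, 1681 and 1557 in DMSO replicates 1, 2 and 3. The lowest DMSO value was 8.41 times the highest TP-064 value. The mean was 156 ± 14.8 with TP-064 and 1542 ± 147 with DMSO (SD, n = 3 each), with log2 fold change -3.30 (SE 0.08), so that DMSO samples were 9.82-fold higher. By this value IL21R stood in place 6 of 16048 tested genes from the most negative, and in place 2 of the 10157 with a mean of at least 200. The TP-064 values rest on 137 to 189 recovered reads per library, and the DMSO values on 1338 to 1691.

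IL21R occupies chromosome 16, bases 27402162 to 27452042 of GRCh38, plus strand. An antisense gene, IL21R-AS1, covers 23.3% of its exon length on the other strand and is not analysed here. The sources used here do not give the strand setting of the counting. Whether reads of that gene were kept apart from those of IL21R is therefore not known. Smaller overlaps of this kind, as shares of exon length, were 5.75% for IL4R (AC106739.1) and 0.06% for JAK1 (RAVER2). For STAT6 they were 0.95% (NAB2) and 0.81% (LRP1).

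IL4R, the chain that gives interleukin 4 its own receptor, was also lower in every treated sample. Its TP-064 samples had 1291, 1404 and 1254 normalized read counts and its DMSO samples 2711, 2650 and 2753. The groups did not overlap, with the lowest DMSO value 1.89 times the highest TP-064 value. The log2 fold change was -1.04 (SE 0.05), which makes the DMSO level 2.06-fold higher. IL4R occupies chromosome 16, bases 27313668 to 27364778, on the strand of IL21R, and its start lies at -88.5 kb from the IL21R start.

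IL2RG, the gamma chain shared by the receptors for interleukins 2, 4, 7, 9, 15 and 21, had 448, 453 and 384 normalized read counts after TP-064 and 406, 401 and 413 after DMSO. These groups overlapped, and the log2 fold change was 0.07 (SE 0.08). In GENCODE release 29 another gene, AL590764.2, shares 50.8% of the IL2RG exon length on the same strand. That gene is not analysed here, and whether reads in the shared exons were counted for IL2RG depends on the annotation release, which the sources used here do not give.

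IL10RA, the ligand-binding chain for interleukin 10, was the least expressed of the 10 genes. It had 81.3, 103 and 82.3 normalized read counts after TP-064 and 102, 99.4 and 99.5 after DMSO, which overlap, with log2 fold change -0.18 (SE 0.14). These values rest on 81 to 104 recovered reads per library, and whether a difference of that size could be detected at this depth was not tested.

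**Figure D1:**
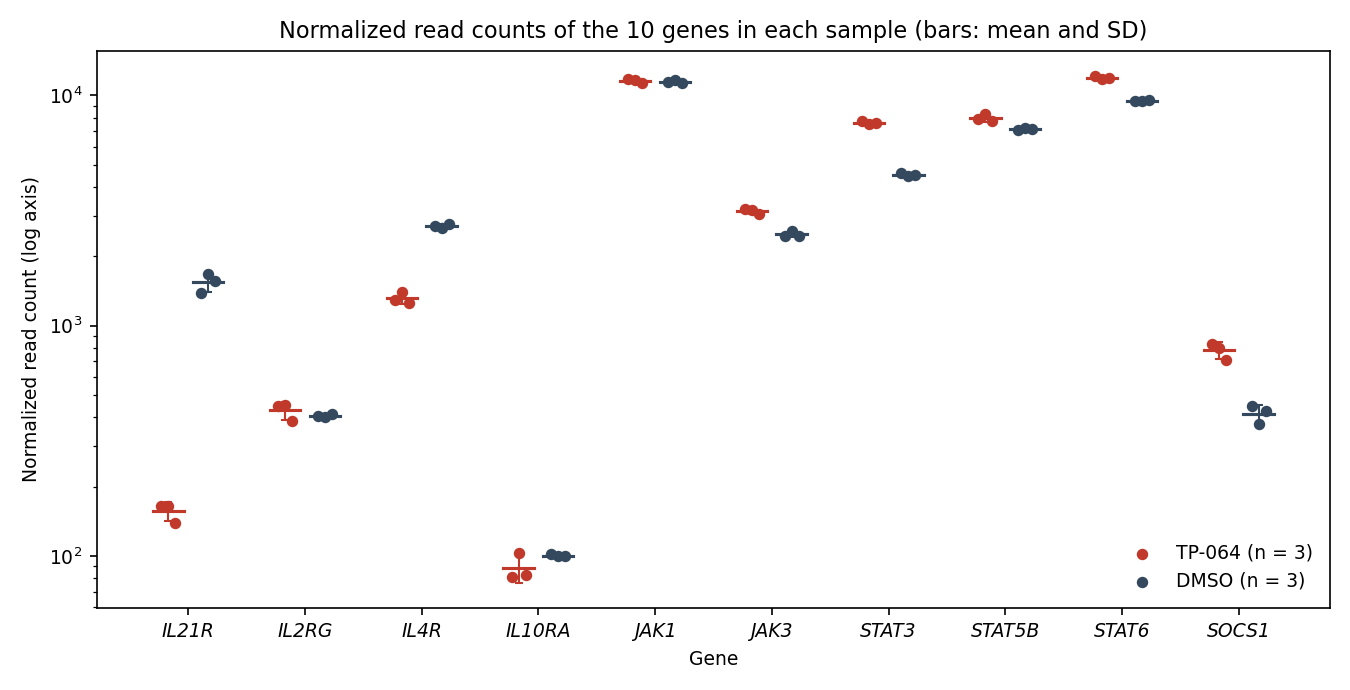
Normalized read count (log axis) of each of the 10 genes in the 3 TP-064 samples (red, left) and the 3 DMSO samples (dark, right), with points for samples and bars for the mean and SD. IL21R and IL4R lie lower in all TP-064 samples, JAK3, STAT3, STAT5B, STAT6 and SOCS1 lie higher, and IL2RG, IL10RA and JAK1 overlap.

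The 2 kinases were abundant. JAK1, which pairs with the ligand-specific chains, had 11748, 11732 and 11309 normalized read counts after TP-064 and 11442, 11734 and 11275 after DMSO. These values overlapped, and the log2 fold change was 0.01 (SE 0.03). JAK3, which binds the gamma chain and is largely limited to blood cells, had 3213, 3169 and 3060 normalized read counts in TP-064 samples, against 2464, 2587 and 2451 in DMSO samples. All TP-064 samples were higher, by log2 fold change 0.33 (SE 0.04). Per kb of exon, the level of JAK1 was 3.97 ± 0.027 times that of JAK3 with TP-064 and 4.95 ± 0.059 times with DMSO (SD, n = 3 each).

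The 3 STAT genes were higher in every TP-064 sample. STAT3, the main STAT below IL21R, had 7725, 7487 and 7627 normalized read counts in TP-064 samples, against 4595, 4469 and 4507 in DMSO samples, with log2 fold change 0.75 (SE 0.03). STAT6, the main STAT below IL4R, had 12144, 11772 and 11892 in TP-064 samples and 9432, 9420 and 9582 in DMSO samples, with log2 fold change 0.33 (SE 0.03). STAT5B, used by the receptors for interleukins 2 and 7, showed the smallest such difference. Its TP-064 samples had 7875, 8274 and 7739 normalized read counts and its DMSO samples 7102, 7214 and 7168, with log2 fold change 0.15 (SE 0.03). The gap between the groups was narrow, with the lowest TP-064 value 1.07 times the highest DMSO value. STAT5B and STAT5A are close relatives, and 10% of the 50-base words of the longest STAT5B transcript also occur in STAT5A, so part of their reads is uncertain.

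SOCS1, an inhibitor that binds JAKs and is recurrently mutated in B cell lymphomas, had 836, 801 and 711 normalized read counts after TP-064. Its DMSO samples had 446, 375 and 425, so the groups did not overlap. The mean was 783 ± 64.8 with TP-064 and 415 ± 36.8 with DMSO (SD, n = 3 each), with log2 fold change 0.91 (SE 0.08). No other of the 10 genes had a larger positive value. SOCS1 occupies chromosome 16, bases 11254405 to 11256200, minus strand, apart from the IL4R and IL21R pair.

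In all, the groups did not overlap for 7 of the 10 genes, 5 higher and 2 lower after TP-064. Over all 16048 tested genes that share was 69.1%, with 33.9% higher and 35.2% lower, and 65.1% passed a limma adjusted p of 0.05, with 31.9% higher and 33.3% lower. Since the 10 genes were chosen by this contrast, nothing is read from their count against these shares. IL21R and IL4R, 2 of the 10, differed by at least 2-fold, and 13.1% of all tested genes both passed the adjusted p and differed by at least 2-fold. With library size scaling, the median log2 fold change of all genes was 0.13 in place of 0.01, and the share of calls that were higher was 61.6% in place of 48.9%. In that setting IL21R was at -3.17, IL4R at -0.92, which is under 2-fold, STAT3 at 0.87 and SOCS1 at 1.04, which is over 2-fold, so the pair of genes past 2-fold became IL21R and SOCS1. Less the median of all genes, which restores the first scale, they were at -3.30, -1.05, 0.74 and 0.91 in the same order.

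Levels can be set side by side between genes once divided by exon length. After TP-064 the order by normalized read count per kb of exon was JAK1 (1836 ± 39.4), STAT6 (1636 ± 26.1), STAT5B (1235 ± 43.2), STAT3 (864 ± 13.6), JAK3 (462 ± 11.6), SOCS1 (436 ± 36.1), IL4R (223 ± 13.2), IL2RG (155 ± 13.9), IL21R (28.6 ± 2.70) and IL10RA (10.96 ± 1.505, SD, n = 3 each). JAK3 and SOCS1 overlapped there, and the other neighbours in the order did not. After DMSO the first 4 genes stood in the same order, followed by IL4R (459 ± 8.78), JAK3 (367 ± 11.03), IL21R (282 ± 26.8), SOCS1 (231 ± 20.5), IL2RG (147 ± 2.27) and IL10RA (12.4 ± 0.16), with no overlap between neighbours. IL21R thus stood above its partner chain IL2RG in DMSO samples and below it in TP-064 samples. The ratio of IL21R to IL2RG per kb was 0.186, 0.183 and 0.183 in TP-064 replicates 1, 2 and 3, against 1.73, 2.12 and 1.90 in DMSO replicates 1, 2 and 3. That ratio carries the limit given above for IL2RG, and exon length here is the union over all annotated isoforms.

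**Figure D2:**
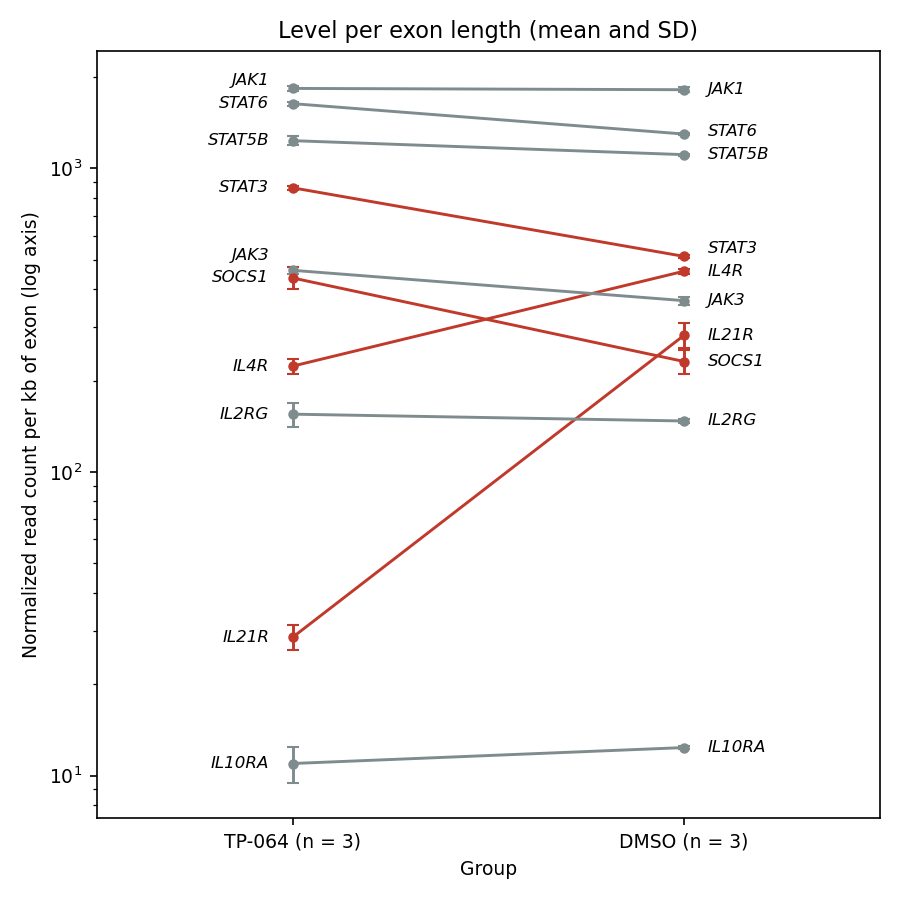
Normalized read count per kb of exon (log axis, mean and SD, n = 3) of the 10 genes in TP-064 samples (left) and DMSO samples (right), joined by gene. IL21R, at 28.6 after TP-064 and 282 after DMSO, crosses IL2RG and SOCS1, and the lines of JAK1, STAT6 and STAT5B at the top do not cross.

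Other genes of the pathway were read from lists of partner chains, other receptors, kinases, regulators, ligands and reported targets, which were also drawn up with earlier results of these samples known. Of 105 such genes 63 were in the table and 61 were tested, and 46 passed a limma adjusted p of 0.05 over all genes, 23 higher and 23 lower after TP-064. That is 75.4% against 65.1% of all tested genes, and the median log2 fold change was -0.03 against 0.01. The lists are described by these counts only.

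Among the partner chains, 4 of 9 genes were tested, 1 higher and 3 lower, with a median log2 fold change of -0.69. IL7R, which pairs with IL2RG to bind interleukin 7 in early lymphocytes, rose to 746, 709 and 781 normalized read counts in TP-064 samples, against 118, 138 and 119 in DMSO samples. The log2 fold change was 2.57 (SE 0.09, limma adjusted p = 1.36e-12). Its level per kb was 0.80 ± 0.11 times that of IL2RG with TP-064 and 0.14 ± 0.015 times with DMSO (SD, n = 3 each). IL15RA, which presents interleukin 15, fell by 1.02 on the log2 scale (SE 0.15, limma adjusted p = 2.49e-05). IL13RA1, which joins IL4R in the receptor that binds both interleukins 4 and 13, had 5.24, 9.89 and 6.09 normalized read counts after TP-064 and 31.1, 30.8 and 26.0 after DMSO. Its log2 fold change was -1.95 (SE 0.33, limma adjusted p = 9.49e-05). IL10RB, the second chain of the interleukin 10 receptor, fell by 0.35 (SE 0.05, limma adjusted p = 3.28e-05). IL2RA, the high-affinity chain for interleukin 2, did not reach the filter, at 1.75, 6.92 and 9.14 in TP-064 samples and 5.19, 1.99 and 18.4 in DMSO samples, and IL2RB, IL9R, IL13RA2 and CRLF2 are not analysed here.

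Of 29 other cytokine receptor chains 15 were tested, with 4 higher, 6 lower and 5 not called, at a median log2 fold change of -0.12. CSF2RB, the chain shared by the receptors for GM-CSF and interleukins 3 and 5, rose to 7342 ± 338 normalized read counts after TP-064, against 5163 ± 142 after DMSO (SD, n = 3 each). Its log2 fold change was 0.51 (SE 0.04, limma adjusted p = 2.57e-08). IFNGR2, the signalling chain of the interferon gamma receptor, fell by 0.50 (SE 0.03, limma adjusted p = 3.98e-09), with 3957, 4080 and 3991 in TP-064 samples and 5731, 5715 and 5622 in DMSO samples. IL27RA fell by 0.62 (SE 0.11, limma adjusted p = 0.000124), and IFNAR2, of the type I interferon receptor, rose by 0.21 (SE 0.04, limma adjusted p = 0.000547). Exons of IFNAR2 are covered for 39.1% by the antisense gene IL10RB-DT. That gene was low, at 60.3, 55.4 and 105 normalized read counts in TP-064 samples and 41.5, 51.7 and 51.9 in DMSO samples. The part of its reads in the IFNAR2 values was not tested. IL22RA1 and IL23R were called at low levels. IL22RA1 had 6.99, 7.91 and 11.2 normalized read counts after TP-064 and 62.3, 32.8 and 51.9 after DMSO (log2 fold change -2.34, limma adjusted p = 7.84e-06). IL23R had 26.2, 27.7 and 29.5 in TP-064 samples and 4.15, 20.9 and 6.49 in DMSO samples, a log2 fold change of 1.61 (limma adjusted p = 0.00497) that was 2.21 without DMSO replicate 2. Over all alternative settings its log2 fold change ranged from 1.17 to 2.21.

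Each of the 5 tested genes among the other kinases and STATs passed, 3 higher and 2 lower, at a median log2 fold change of 0.34. STAT2, which acts in the response to type I interferon, rose most, to 16046, 15250 and 15673 normalized read counts in TP-064 samples, against 6135, 5976 and 6152 in DMSO samples. The log2 fold change was 1.36 (SE 0.03, limma adjusted p = 6.82e-14). STAT5A rose by 0.47 (SE 0.06, limma adjusted p = 4.20e-06), with the uncertainty given above for STAT5B, which was 8.02 ± 0.42 times as abundant per kb after TP-064 and 10.01 ± 0.71 times after DMSO (SD, n = 3 each). JAK2 rose by 0.34 (SE 0.06, limma adjusted p = 8.98e-05). TYK2 fell by 0.14 (SE 0.03, limma adjusted p = 0.00282), a call lost with library size scaling, at -0.02 (limma adjusted p = 0.706). STAT4 is not analysed here. Among the STATs the genes STAT5B, STAT5A and STAT3 lie next to each other on chromosome 17 between 42199168 and 42388568, and each was higher in all TP-064 samples.

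Regulators of the pathway included further feedback inhibitors that were higher. Of 17 tested genes 7 rose, 5 fell and 5 were not called, with a median log2 fold change of 0.02. SOCS2, which limits growth hormone and STAT5 signalling, rose to 476, 442 and 458 normalized read counts in TP-064 samples, against 185, 176 and 182 in DMSO samples, with log2 fold change 1.34 (SE 0.08, limma adjusted p = 8.16e-10). CISH, a feedback target of STAT5, had 165, 161 and 135 in TP-064 samples and 54.0, 90.5 and 57.3 in DMSO samples. Its log2 fold change was 1.21 (SE 0.18, limma adjusted p = 2.69e-05). The gene MAPKAPK3 covers 4.26% of the CISH exon length on the other strand, and SOCS2-AS1 covers 4.09% of SOCS2. Both partners also rose, MAPKAPK3 by 0.63 (limma adjusted p = 2.01e-08) and SOCS2-AS1 by 1.34 (limma adjusted p = 6.92e-06). MAPKAPK3 had 3323, 3646 and 3348 normalized read counts after TP-064 and 2180, 2136 and 2360 after DMSO. The part of such reads in the CISH and SOCS2 values was not tested. SOCS7 rose by 0.32 (SE 0.03, limma adjusted p = 5.17e-07).

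The regulators that fell included phosphatases, but not all phosphatases of the list fell. PTPRC, the receptor phosphatase CD45 that acts on JAKs and on kinases of antigen receptors, fell by 0.73 (SE 0.03, limma adjusted p = 2.82e-11), at 10095, 10123 and 10079 normalized read counts in the TP-064 samples and 17094, 16596 and 16601 in the DMSO samples. PTPN11 fell by 0.24 (SE 0.03, limma adjusted p = 7.31e-06), and this phosphatase, SHP2, is best known for supporting signals from receptors to RAS rather than for ending them. PTPN1, which removes phosphate from JAK2 and TYK2, fell by 0.20 (SE 0.04, limma adjusted p = 0.000362) and lost its call with library size scaling, at -0.07 (limma adjusted p = 0.0529). Chosen after their values were seen, the phosphatase PTPN6 (SHP1) rose by 0.22 (SE 0.04, limma adjusted p = 0.00022), and PTPN2 did not pass, at -0.03 (limma adjusted p = 0.503). The other 2 regulators that fell are no phosphatases: the SUMO ligase PIAS3 fell by 0.31 (SE 0.06, limma adjusted p = 0.000458), and the adaptor SH2B3 fell by 0.23 (SE 0.05, limma adjusted p = 0.00102) and lost its call with library size scaling, at -0.11 (limma adjusted p = 0.0616). SOCS3 is not analysed here.

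Ligands were sparse, with 2 of 21 tested. IL23A had 87.4, 102 and 97.5 normalized read counts after TP-064 and 52.9, 69.6 and 57.3 after DMSO, and rose by 0.67 (SE 0.16, limma adjusted p = 0.00148). OSM had 51.6, 62.3 and 43.7 in TP-064 samples and 33.2, 28.8 and 21.6 in DMSO samples, and rose by 0.90 (SE 0.23, limma adjusted p = 0.00281). The other 19, IL21 and IL4 among them, are not analysed here.

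Of 22 genes reported as STAT targets in B cells 18 were tested, with 6 higher, 7 lower and 5 not called, at a median log2 fold change of -0.06. PIM1, a survival kinase induced by STAT3 and STAT5, fell to 1075, 1087 and 976 normalized read counts in TP-064 samples, against 2784, 2587 and 2830 in DMSO samples, with log2 fold change -1.39 (SE 0.05, limma adjusted p = 5.08e-12). Its relative PIM2 rose by 0.61 (SE 0.04, limma adjusted p = 3.52e-09), at 22332 ± 1226 with TP-064 and 14625 ± 266 with DMSO (SD, n = 3 each). The cyclin CCND3 fell by 0.93 (SE 0.04, limma adjusted p = 8.84e-12), while CCND2, at 93.6 ± 18.9 with TP-064 and 34.6 ± 1.90 with DMSO (SD, n = 3 each), rose by 1.39 (SE 0.18, limma adjusted p = 7.25e-06). Of the survival proteins, MCL1 rose by 0.36 (SE 0.03, limma adjusted p = 1.23e-07) and BCL2 fell by 0.59 (SE 0.03, limma adjusted p = 4.81e-10). Chosen after their values were seen, BCL6, the repressor that marks germinal centre cells, fell by 0.30 (SE 0.06, limma adjusted p = 0.000325), and BATF rose by 1.46 (SE 0.29, limma adjusted p = 0.000419). PRDM1, which drives plasma cell fate, had 82.2, 78.1 and 67.0 in TP-064 samples and 107, 99.4 and 69.2 in DMSO samples, and did not pass (log2 fold change -0.26, limma adjusted p = 0.215). It did pass without DMSO replicate 3, at -0.44.

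**Figure D3:**
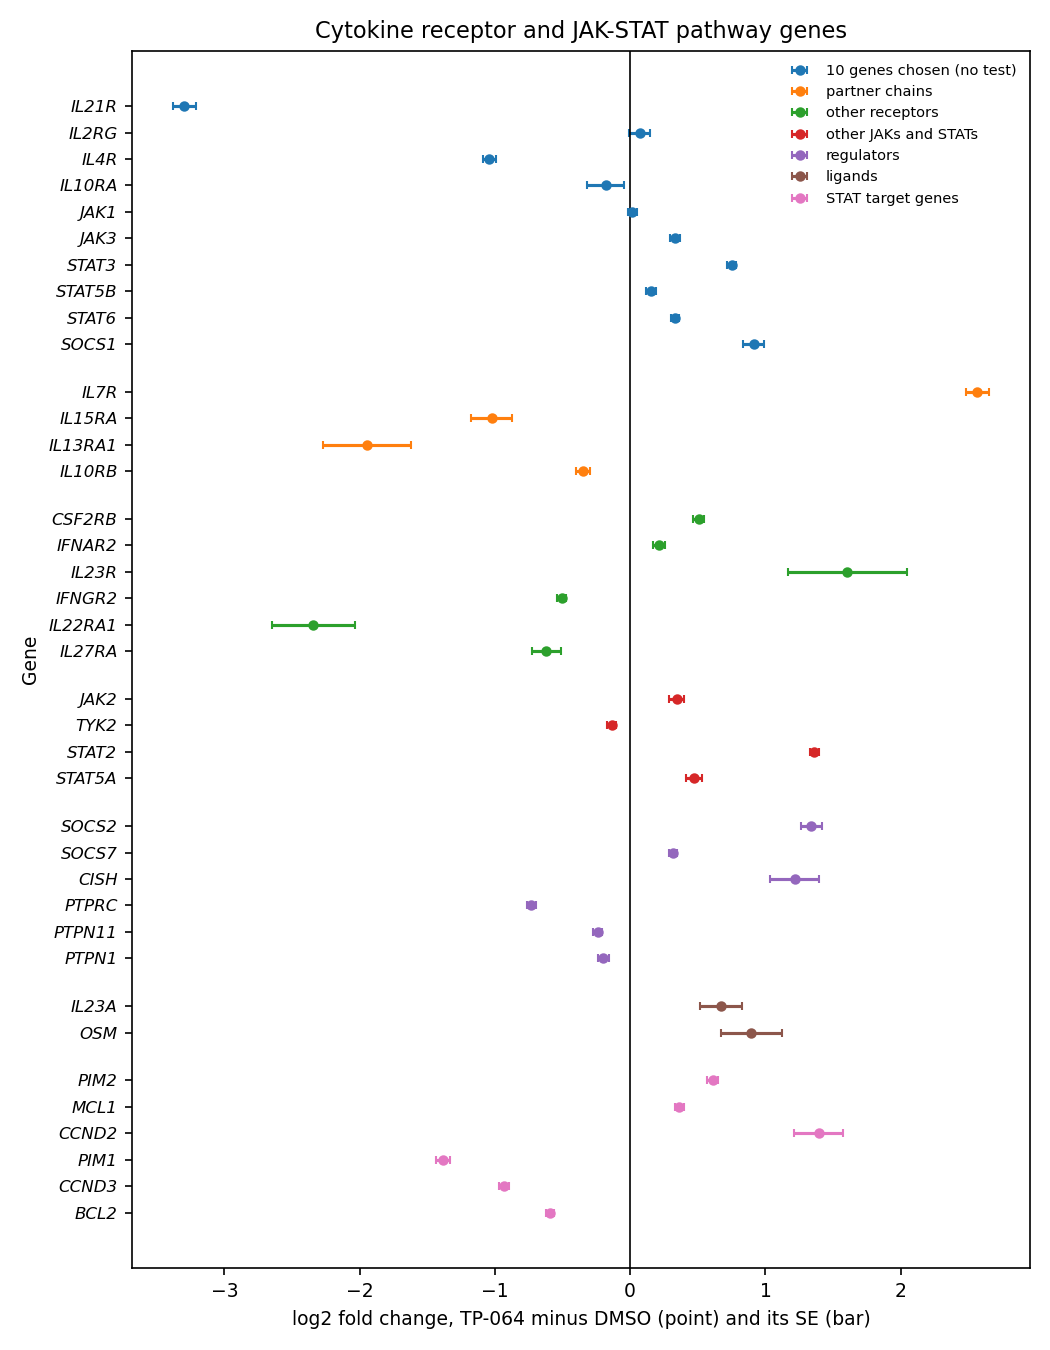
Log2 fold change of TP-064 minus DMSO (point) with its SE (bar) for the 10 genes at the top and the named, tested genes of the pathway lists below. IL21R (-3.30) and IL22RA1 (-2.34) lie farthest to the left and IL7R (2.57) farthest to the right, and each list holds points on both sides of 0 except the 2 ligands.

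The surroundings of IL21R were read over 250 kb on either side of its start. Apart from IL21R and IL4R, 6 listed genes start there, and 5 of them were tested. Upstream, NSMCE1, a subunit of the SMC5/6 complex, fell by 0.80 (SE 0.06, limma adjusted p = 1.36e-08), at 2999, 3598 and 2973 normalized read counts in the TP-064 samples and 5370, 5623 and 5651 in the DMSO samples. KDM8, farther upstream, fell by 0.37 (SE 0.08, limma adjusted p = 0.000644). The noncoding gene FLJ21408 was low, at 12.2, 7.91 and 8.12 in TP-064 samples and 30.1, 38.8 and 27.0 in DMSO samples, and fell by 1.67 (SE 0.30, limma adjusted p = 0.000184). NSMCE1 and FLJ21408 overlap at their starts on opposite strands, so their falls may not be separate observations. Over all tested genes 33.3% were called lower, and whether the region fell as a whole was not tested. On the downstream side the 2 genes did not fall. GTF3C1, a subunit of the RNA polymerase III factor TFIIIC, had 10161, 10140 and 9847 in TP-064 samples and 10087, 9836 and 10018 in DMSO samples, and did not pass (log2 fold change 0.01, limma adjusted p = 0.806). KIAA0556 rose by 0.55 (SE 0.06, limma adjusted p = 4.91e-07). AC109449.1 did not reach the filter, with 3.96 to 10.2 after TP-064 and 7.57 to 10.4 after DMSO.

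**Figure D4:**
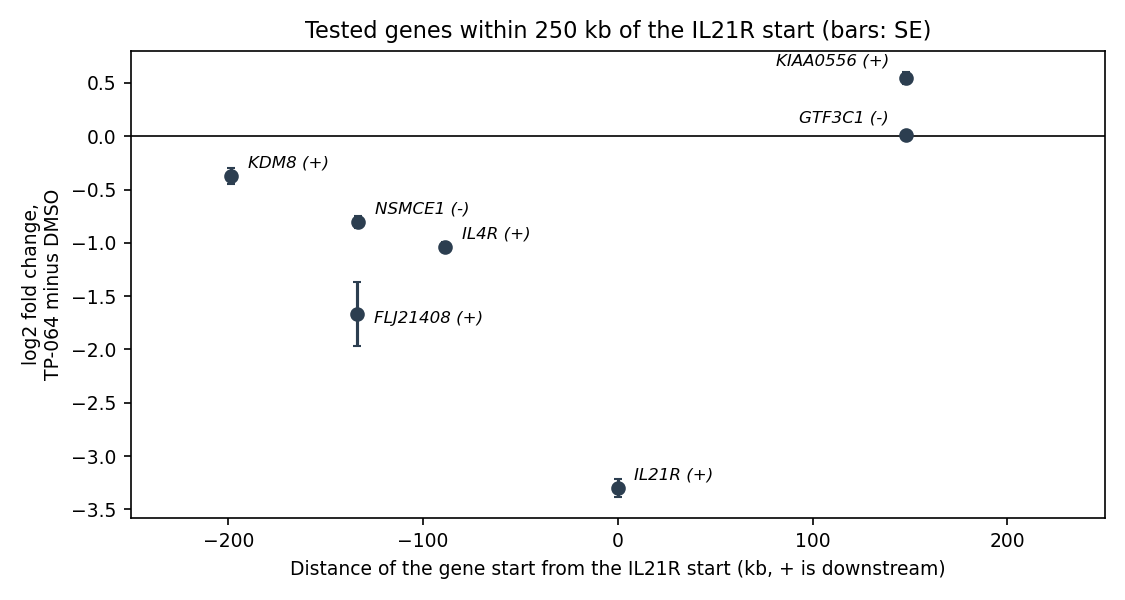
Log2 fold change of TP-064 minus DMSO with its SE for each tested gene that starts within 250 kb of IL21R, against the distance of its start from the IL21R start in kb, with the strand in brackets. The 4 genes upstream lie between -0.37 and -1.67, IL21R lies at -3.30, and the 2 genes downstream lie at 0.01 and 0.55.

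The 5 genes whose profile was most like that of IL21R were BMP7, CDC42BPB, CLCN4, ETV4 and TUBB2B, out of 10144 compared. Likeness was the root mean square difference of log2 values over the 6 samples, each gene taken about its own mean, and it was 0.21 for BMP7, 0.24 for CDC42BPB, 0.27 for CLCN4, 0.29 for ETV4 and 0.32 for TUBB2B. With 2 groups of 3 samples the measure mostly finds genes with a fall of like size. BMP7 had 199, 136 and 150 normalized read counts after TP-064 and 1849, 1822 and 1823 after DMSO, close to the IL21R values in both groups.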

How the data were processed

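Polyadenylated RNA of the 6 samples was purified on columns and built into strand-specific libraries with a kit for mRNA, per the labels' protocols. TopHat2 2.0.10, HTSeq 0.6.0, DESeq 1.18.0 and the hg38 build were used, per the submitters' processing notes. The authors deposited 1 table whose signal values are normalized read counts, each gene's count over the size factor of its sample. In each column 100% of values were whole multiples of 1 step (tolerance 0.001), which gave recovered reads for the count tests, and edgeR's quasi-likelihood test on those reads called 10562 genes. For replicate 2 of each treatment the step is close to 1, so that its size alone does not separate it from rounding.

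The 10 genes and the lists were chosen with earlier results of these data known. The design named limma for normalized values. Limma 3.58.1 (R 4.3.3, trend option, no replicate block) was run on log2(normalized read count + 1) for 16048 genes with a mean of at least 10, two-sided, with Benjamini-Hochberg adjustment over all of them and a threshold of 0.05. Fold changes are on that scale, which understates low genes. The fit was tested on simulated data. Replicates differed by 3.06 to 7.63 chi-square units per degree of freedom, so none was counted as a repeat. Alternatives were edgeR 4.0.16, DESeq2 1.42.0, library size scaling, pseudocounts of 0.5 and 5, no filter, a replicate block and each replicate left out.

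Named were the 10 genes, all tested partner chains and JAK or STAT genes (1 of which is not reported here), up to 3 called genes per direction with the smallest p from each other list, genes starting within 250 kb of IL21R, and the 5 genes most like it. Coordinates and exon lengths come from GENCODE release 29 on GRCh38, matched for 18214 of 18278 genes. Promoters come from RefSeq on GRCh38.p14.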

Additional observations from a re-analysis of the deposited data

How the results depend on the processing

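The count of genes called stayed within 1.5 times of 10449 under all 13 alternatives, from 9724 with DESeq2 to 10807 with library size scaling, and the count among the pathway lists within 42 to 47 of 61 to 63 tested. With each replicate left out the counts were 9732 to 10247 over all genes and 42 to 46 over the lists. Each of the 10 genes kept the sign of its log2 fold change throughout: IL21R ranged from -3.37 to -3.17, IL4R from -1.09 to -0.92 and SOCS1 from 0.84 to 1.04. The 3 genes whose groups overlapped stayed near 0, so a kept sign says little for them. IL2RG ranged from 0.03 to 0.19, IL10RA from -0.29 to -0.06 and JAK1 from 0.00099 to 0.14. For the other 7, leaving out 1 replicate cannot change the sign. With library size scaling 7 of the 10 moved by more than the spread between replicates, and with edgeR 2 did (STAT3 at 0.78 and STAT6 at 0.36). Of 61 tested pathway genes 44 kept their call under each alternative. IL6ST lost its call with library size scaling, at 0.00114 (adjusted p = 0.984) against -0.12. In that setting IFNAR1, TYK2, PTPN1 and SH2B3 also lost their calls, and IFNLR1, SOCS6, PIAS4 and MYC gained one. With DESeq2 IL11RA, CD274 and IL4I1 lost their calls, and MYC gained one there and with edgeR. With 1 replicate left out, the calls of USP18, SOCS5 and BCL2L1 were among those lost.

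Replicate numbers are shared between the groups, but same-numbered libraries did not deviate together (correlations of -0.09, 0.07 and -0.08), and 1 of 3 TP-064 libraries correlated best with its own number. With the replicate block 10491 genes and 47 pathway genes were called, and MYC was the pathway gene that gained a call. Of the 10 genes IL10RA had the fewest recovered reads, and some called pathway genes, such as IL23R and IL13RA1, had fewer still. The effect of depth on these results was not tested.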

Other observations

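The chains of the type I interferon receptor, chosen after their values were seen, moved in opposite directions. IFNAR1 had 3153, 3396 and 3450 normalized read counts after TP-064 and 3916, 3859 and 3730 after DMSO, and fell by 0.20 (SE 0.04, limma adjusted p = 0.000508). IFNAR2 had 2951, 3157 and 3233 in TP-064 samples and 2758, 2587 and 2720 in DMSO samples, and rose by 0.21. The fall of IFNAR1 lost its call with library size scaling, at -0.08 (adjusted p = 0.0947).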
